A study of Mus musculus with 25 samples.

Results

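The 8 genes described here are 2 nuclear long noncoding RNAs, Malat1 and Neat1, and 6 noncoding hosts of small nucleolar RNAs (snoRNAs), Gas5, Snhg1, Snhg6, Snhg8, Snhg12 and Snhg15. They are 8 of the 30926 genes of the table, taken by symbol, and all of them passed the filter on low values. The set was chosen by the values of Malat1, Neat1 and Snhg15 under the hairpins against Slug, so every difference that involves a hairpin line is given below as a description with no test. The stated choice did not use the comparison of parental cells without and with glutamine, which was tested. Earlier results of these data were, however, known when the set was chosen.

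The series asked how glutamine shortage acts on Slug, the zinc-finger repressor encoded by Snai2, in KPC cells, a mouse pancreatic ductal adenocarcinoma line of C57BL/6 background. There were 25 libraries in 5 groups of 5. Parental cells were kept for 24 h either in complete DMEM, called complete below, or in DMEM lacking glutamine with 10% dialysed serum, called starved. Serum is listed at 10% for both media. The kind of serum in complete DMEM is not given here, so any part of it cannot be told apart from that of glutamine. The shLuc, shSlug1 and shSlug2 groups are derivatives of the line that carry a hairpin against luciferase, as control, or a first or second hairpin against Slug, and all 3 were starved too. No hairpin line was sampled in complete medium. The sources used here do not give whether each derivative is a clone or a pool, whether replicates are separate cultures, or which alleles the KPC line carries.

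Malat1 and Neat1 are neighbouring genes whose RNAs stay in the nucleus. Malat1 RNA is enriched at nuclear speckles, where splicing factors gather, and the long form of Neat1 is the scaffold of paraspeckles, bodies that hold RNA-binding proteins and edited RNAs. Host genes carry snoRNAs in their introns: the snoRNA is cut from the excised intron and guides chemical modification of ribosomal and other RNAs, while the spliced exons leave as a transcript with little coding potential. Gas5 and several other hosts begin with a run of pyrimidines, as ribosomal protein mRNAs do, and their spliced RNAs are known substrates of nonsense-mediated decay, the pathway that removes translated RNAs with an early stop codon.

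In the GENCODE M21 annotation of mm10, Malat1 lies at chr19:5795690-5802672 on the minus strand and Neat1 at chr19:5824708-5845478 on the same strand. Snhg1 lies on the same chromosome at chr19:8723475-8726443, plus strand. Gas5 occupies chr1:161034422-161038539 on the plus strand and Snhg6 chr1:9941959-9944118 on the minus strand. Snhg8 lies at chr3:123507552-123508404, minus strand, Snhg12 at chr4:132308623-132311024, plus strand, and Snhg15 at chr11:6525591-6528760, minus strand. No snoRNA gene lies inside Malat1 or Neat1, while 10 lie inside Gas5, 8 inside Snhg1, 5 inside Snhg12 and 1 each inside Snhg6, Snhg8 and Snhg15. These counts include a second, overlapping entry of Snord80 in Gas5 and of Snora16a in Snhg12.

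Start sites of 5 hosts are shown because several hosts share a pyrimidine run at or near the first base with ribosomal protein genes. Each line runs from 30 bases before to 50 bases after the RefSeq start on GRCm38.p6, with the start base at position 31. Capitals mark the longest run of C and T that begins between 10 bases before and 20 bases after the start.
Gas5, chr1:161035136-161035215, plus strand: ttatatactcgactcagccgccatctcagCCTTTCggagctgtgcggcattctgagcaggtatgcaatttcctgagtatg
Snhg1, chr19:8723457-8723536, plus strand: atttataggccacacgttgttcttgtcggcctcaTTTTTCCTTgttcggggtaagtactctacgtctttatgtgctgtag
Snhg8, chr3:123508287-123508366, minus strand: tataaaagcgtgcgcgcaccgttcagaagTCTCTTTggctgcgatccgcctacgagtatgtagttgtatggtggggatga
Snhg12, chr4:132308648-132308727, plus strand: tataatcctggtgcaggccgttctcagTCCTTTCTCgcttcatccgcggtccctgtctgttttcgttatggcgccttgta
Snhg15, chr11:6528711-6528790, minus strand: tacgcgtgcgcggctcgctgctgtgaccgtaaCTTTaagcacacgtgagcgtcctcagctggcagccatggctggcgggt
The run was 9 bases in Snhg1 and Snhg12, 7 in Snhg8, 6 at this start of Gas5 and 4 in Snhg15. In Snhg1 and Snhg15 it begins 4 and 2 bases after the start base, which it does not include. Over 32851 promoters the median was 4 bases with quartiles of 3 and 6, and over 76 promoters of ribosomal protein genes it was 6 with quartiles of 4 and 9. A second RefSeq start of Gas5, further upstream, has a run of 3 bases, and the start of Malat1 one of 4. No start is shown for Neat1 and Snhg6.

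Among 4 motifs searched on both strands of the 300 base promoters, the cyclic AMP response element TGACGTCA, which binds factors of the CREB and ATF families, was found in Gas5 and Snhg15. It occurs in 1.79% of all promoters of that length. The stretches around it are shown with the element in capitals.
Gas5, chr1:161035090-161035157, plus strand: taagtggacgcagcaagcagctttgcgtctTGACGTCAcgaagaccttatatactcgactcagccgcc
Snhg15, chr11:6528811-6528878, minus strand: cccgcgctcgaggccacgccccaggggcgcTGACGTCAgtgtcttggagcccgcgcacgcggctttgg
The E-box CAGGTG, the kind of site that Slug binds, was found in the promoter of Snhg12 and at the upstream start of Gas5, and in 20.2% of all promoters. The E-box CACGTG, bound by Myc, was found in Snhg15 and in 7.15% of all promoters. TGATGNAAT, a form of the amino acid response element, was found in none of the promoters looked up and in 0.965% of all. Forms of that element with another last base were not searched. A match is a run of letters and not a shown binding site.

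Malat1 needs a further sequence, since the libraries were made with a kit for transcript 3′ ends and the mature 3′ end of Malat1 carries a triple helix instead of a poly(A) tail. Its 6983 base transcript in GENCODE M21 holds a run of 12 A, in capitals below, that begins at base 6674 and ends 298 bases before the annotated end. The annotated end is not shown to be the mature 3′ end, and whether the run is part of that mature end was not determined.
Malat1, minus strand of chromosome 19: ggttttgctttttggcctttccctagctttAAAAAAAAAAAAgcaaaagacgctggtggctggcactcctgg
Which bases of Malat1 or Neat1 the reads covered cannot be told from a table of values per gene. For Neat1 the short polyadenylated and the long form share 1 row of the table and cannot be told apart.

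Depth was low, between 158729 and 549893 counts per library, so that 1 count was worth 1.82 to 6.30 CPM (counts scaled to a total of 1e+06 per library), the unit of all levels here. The shallowest library was starved replicate 3. Malat1 held 15687 counts over the 25 libraries, Gas5 4081, Snhg15 2075, Snhg6 1324, Snhg1 1112, Neat1 783, Snhg12 314 and Snhg8 269, with a single count of Snhg8 in starved replicate 2. Intervals and spreads cover these libraries only. Snai2, the target of the hairpins, stood at 7.54 ± 5.42 CPM in complete and 79.5 ± 14.5 in starved cells (SD, n = 5), and at 55.9 ± 24.0 in shLuc, 6.09 ± 3.75 in shSlug1 and 4.29 ± 2.89 in shSlug2. All 8 epithelial and ductal markers had counts in every group, with a summed level of 2117 to 6453 CPM per library, lowest in the starved parental cells. Fibroblast, leucocyte, endothelial and islet markers summed to at most 15.9 CPM in any library, and acinar markers to at most 41.7 CPM, all of it Cela1. Mitochondrially encoded genes held 14.2% to 28.0% of the counts of a library, with group means of 24.0% in complete, 25.1% in starved, 19.8% in shLuc, 20.9% in shSlug1 and 16.2% in shSlug2. As in any bulk sample, fewer cells with a transcript and less of it per cell cannot be told apart.

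Of the 8 genes, 7 rose in glutamine starvation. In the comparison of starved with complete parental cells, 7 passed the test as higher and 0 as lower, against 10.8% of all 12473 tested genes called higher and 11.7% called lower. In 5 of them, Neat1, Gas5, Snhg1, Snhg6 and Snhg12, every starved library lay above every complete library, which over all tested genes was so, in either direction, for 15.7%. The median log2 difference was 1.45 over the 8 genes and -0.06 over all tested genes. Differences are on the scale of log2(CPM + 1), with the standard error (SE) of a limma fit and a p adjusted over all tested genes. In the same comparison 6 of 7 tested epithelial and ductal markers fell and 1 rose, while the mitochondrial share of counts was 24.0% and 25.1%; their part in the results for the noncoding RNAs was not tested.

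**Figure D1:**
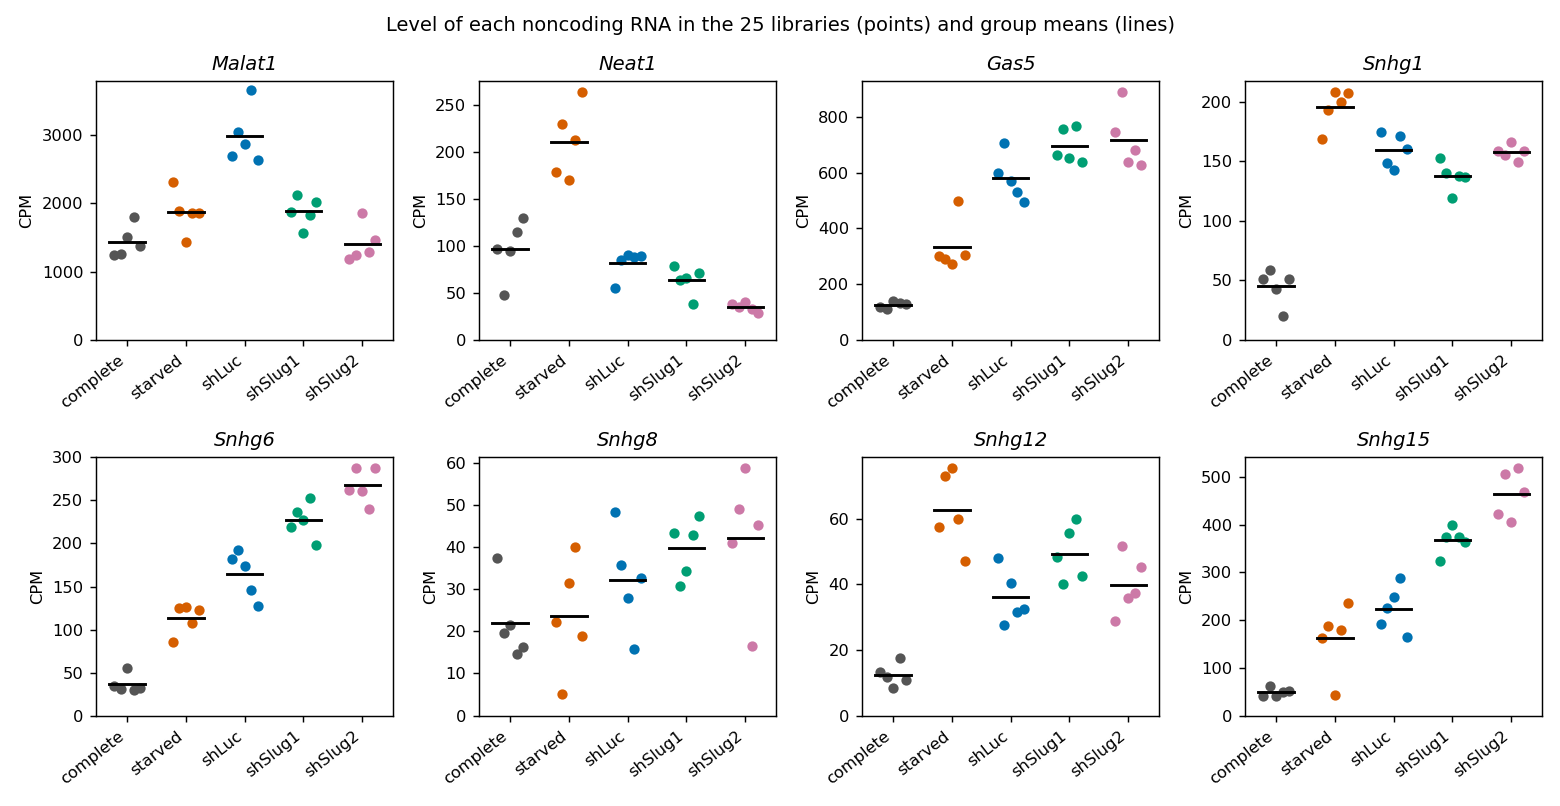
Level in CPM (vertical axes, from 0) of each of the 8 noncoding RNAs in the 25 libraries, by group; points are libraries and lines are group means. Neat1 is highest in the starved parental libraries, Snhg15 climbs from 49.0 CPM in complete to 464 CPM in shSlug2, and Malat1 peaks at 2975 CPM in shLuc.

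Malat1, with the most counts of the set, read 1248, 1256, 1507, 1796 and 1377 CPM in the complete libraries and 2302, 1886, 1436, 1848 and 1853 CPM in the starved ones. Starved replicate 3 lay within the complete range and the other 4 above it. The mean went from 1437 ± 227 to 1865 ± 306 CPM (SD, n = 5), a log2 difference of 0.37 ± 0.12 (SE; adjusted p = 0.0138; exact two-sided permutation p = 0.0397). The call was lost in a fit of only the 2 groups (adjusted p = 0.0591), without complete replicate 1 (0.0544) and without starved replicate 1 (0.0752).

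Neat1 read 96.4, 47.3, 94.3, 114 and 129.6 CPM in complete and 179, 229, 170.1, 213 and 263 CPM in starved libraries. The groups did not overlap. The mean rose 2.19-fold, from 96.4 ± 31.0 to 211 ± 38.1 CPM, a log2 difference of 1.18 ± 0.22 (adjusted p = 2.27e-05).

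Gas5, the host with the most snoRNA genes here, read 118, 110.3, 141, 132 and 129.6 CPM in complete libraries. It read 303, 292, 271, 498 and 306 CPM in starved ones, where replicate 4 stood apart above the other 4. The groups did not overlap, and the mean rose 2.65-fold, from 126 ± 12.2 to 334 ± 92.9 CPM (log2 difference 1.36 ± 0.13, adjusted p = 4.46e-13).

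Snhg1, host of the U22 snoRNA and others of the box C/D class, had the highest starved to complete ratio after Snhg12 among the 8. It read 50.9, 59.1, 42.9, 20.5 and 51.3 CPM in complete and 169, 193, 208, 200.0 and 207 CPM in starved libraries, with no overlap. The mean rose 4.35-fold, from 44.9 ± 14.8 to 195 ± 15.9 CPM (log2 difference 2.17 ± 0.18, adjusted p = 1.31e-15). Its neighbour Slc3a2, which encodes the heavy chain of amino acid exchangers such as that for leucine and for cystine, starts 106 bases away on the opposite strand. Slc3a2 rose 2.52-fold in the same comparison, from 141 ± 15.6 to 356 ± 60.4 CPM (log2 difference 1.32 ± 0.13, adjusted p = 6.88e-13).

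Snhg6, host of Snord87, read 34.8, 31.5, 55.7, 29.3 and 32.4 CPM in complete libraries, where replicate 3 stood above the others. In starved libraries it read 86.1, 125, 126, 107 and 122 CPM, all above the complete range. The mean rose 3.08-fold, from 36.7 ± 10.8 to 113 ± 17.0 CPM (log2 difference 1.62 ± 0.17, adjusted p = 4.95e-12).

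Snhg12, which carries snoRNAs of both the box H/ACA and the box C/D class, read 13.4, 11.8, 8.57, 17.6 and 10.8 CPM in complete libraries. It read 57.4, 72.9, 75.6, 60.0 and 47.0 CPM in starved libraries, with no overlap. The mean rose 5.04-fold, from 12.4 ± 3.37 to 62.6 ± 11.8 CPM (log2 difference 2.26 ± 0.28, adjusted p = 2.95e-09), on 22 counts in all complete libraries and 87 in all starved ones.

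Snhg15, host of Snora9, read 40.2, 63.0, 40.7, 49.8 and 51.3 CPM in complete libraries and 163, 188, 44.1, 180.0 and 235 CPM in starved ones. Of the starved libraries, 4 lay above the complete range, and replicate 3, the shallowest, lay within it with 7 counts. The mean went from 49.0 ± 9.34 to 162 ± 71.1 CPM (log2 difference 1.53 ± 0.21, adjusted p = 3.88e-08; exact two-sided permutation p = 0.0317). Without starved replicate 3 the log2 difference was 1.95.

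Snhg8, host of Snora24, did not pass the test. It read 37.5, 19.7, 21.4, 14.6 and 16.2 CPM in complete and 22.3, 5.21, 31.5, 40.0 and 18.8 CPM in starved libraries, and the ranges overlapped widely. The log2 difference was -0.07 ± 0.38 (adjusted p = 0.936), with a 95% interval from -0.86 to 0.73, and its sign turned with the scaling and with single libraries left out. For the 5 genes whose groups did not overlap, the exact two-sided permutation p was 0.00794, the smallest that 5 against 5 libraries can give, and for Snhg8 it was 0.921.

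Of 21 noncoding snoRNA hosts on a list, 15 were in the table and 14 were tested. Of these 14, 8 rose and 0 fell in starvation, against 10.8% and 11.7% of all tested genes. Their median log2 difference was 1.45. Of the 8 tested hosts outside the set, 3 rose and 0 fell. Zfas1, a host that is highly expressed in mammary epithelium, rose 7.23-fold, from 31.6 ± 13.4 to 228 ± 16.6 CPM (log2 difference 2.92 ± 0.19, adjusted p = 3.50e-20). Snhg17 rose 3.42-fold, from 13.2 ± 4.66 to 45.0 ± 11.2 CPM, and Snhg5 rose 2.97-fold, from 24.3 ± 11.7 to 72.2 ± 10.7 CPM (adjusted p = 7.22e-07 and 6.08e-07). Of those that did not pass, Snhg20 stood at 19.3 ± 11.6 and 30.0 ± 4.79 CPM (adjusted p = 0.108), and the others were Snhg9, Snhg14, Snhg18 and Epb41l4aos.

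Of 11 tested nuclear long noncoding RNAs besides Malat1 and Neat1, 5 rose and 0 fell, against 10.8% and 11.7% of all tested genes. Their median log2 difference was 0.45. Xist, the RNA that coats the inactive X chromosome, rose 2.32-fold, from 226 ± 41.0 to 525 ± 60.2 CPM, and Kcnq1ot1, an imprinted RNA that silences its neighbours on the paternal chromosome, rose 2.06-fold, from 177 ± 35.0 to 365 ± 42.8 CPM. Pvt1, the neighbour of Myc, rose 2.60-fold, from 37.3 ± 10.7 to 97.1 ± 15.0 CPM, and Tug1 3.40-fold, from 16.3 ± 3.05 to 55.4 ± 23.6 CPM (adjusted p = 5.60e-08, 6.55e-07, 6.27e-07 and 0.000268 for the 4 in this order). Tsix, which overlaps Xist on the other strand, was the fifth, and without the use of strand known its reads and those of Xist cannot be told apart.

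**Figure D2:**
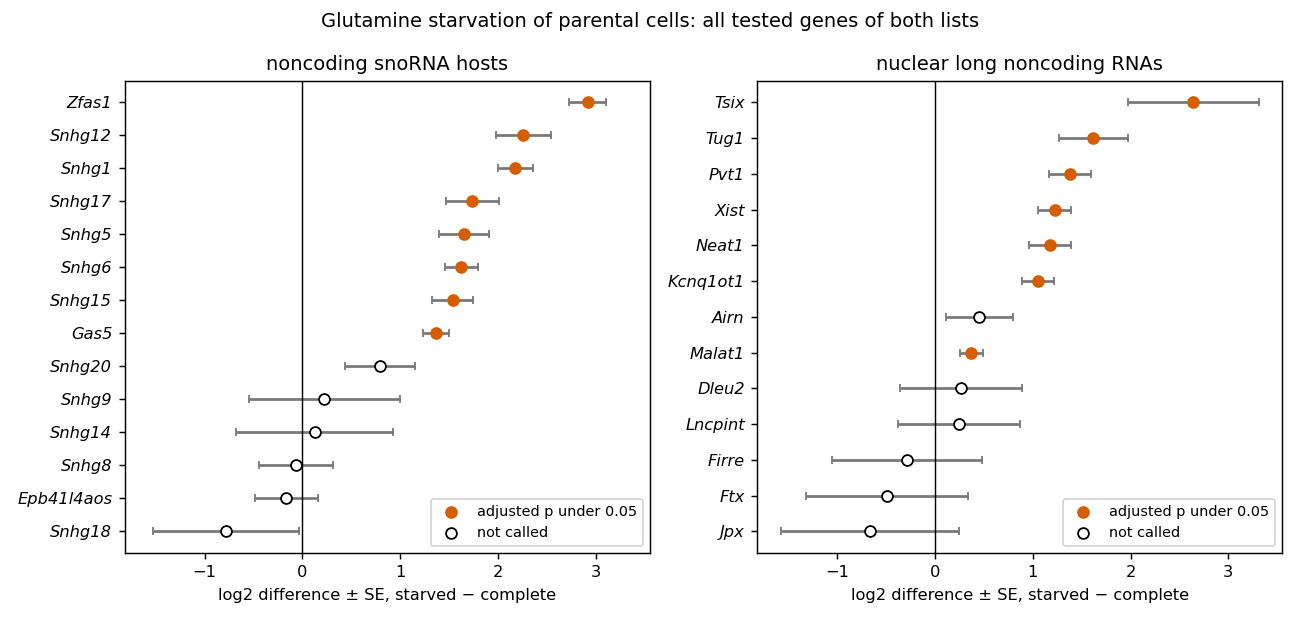
Log2 difference between starved and complete parental cells (horizontal axes, ± SE of the limma fit, 5 libraries per group) for the 14 tested noncoding snoRNA hosts and the 13 tested nuclear long noncoding RNAs, Malat1 and Neat1 included. Filled points passed an adjusted p of 0.05 and open points did not; no filled point lies below 0.

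Lists of proteins that work with these RNAs are set beside the 10.8% of all tested genes called higher and the 11.7% called lower. Of 17 tested paraspeckle proteins 3 rose and 1 fell: Hnrnph1, a splicing factor, rose 3.01-fold from 52.1 ± 16.6 to 157 ± 50.2 CPM, Hnrnph3 rose 4.94-fold from 10.8 ± 7.04 to 53.3 ± 9.16 CPM, Cpsf6 rose 2.02-fold, and Fam98a fell. Of 23 nuclear speckle proteins 9 rose and 0 fell, among them Son, a scaffold of speckles, from 1043 ± 84.0 to 1639 ± 189 CPM, and Srsf3, from 192 ± 31.8 to 356 ± 23.5 CPM. Of 17 factors of nonsense-mediated decay 3 rose (Upf2, Pnrc2 and Smg9) and 1 fell (Upf3b). Of 18 snoRNP proteins 2 rose and 3 fell: Nop58, a core protein of box C/D snoRNPs, rose 1.75-fold, from 398 ± 43.5 to 696 ± 95.5 CPM, while Nhp2 of the box H/ACA particle and Snu13 fell. Of 80 tested ribosomal protein genes 2 rose and 21 fell, with Rps28 going from 990.3 ± 139 to 451 ± 204 CPM. The medians of these lists were -0.02, 0.27, 0.31, 0.13 and -0.19 on the log2 scale, beside -0.06 for all tested genes.

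The table has rows for 22 of the snoRNA genes inside the 6 hosts. Those inside Gas5 held 6432 counts over the 25 libraries, more than Gas5 itself, while those inside Snhg8 held 96, Snhg6 87, Snhg1 77, Snhg12 53 and Snhg15 42. The counts of the Gas5 rows grew towards the 3′ end of the host, from 19 in the row 3066 bases away to 2779 in Gm25789, which lies 156 bases from it; a second entry of Snord80 was at 0. Snord47, at 381 bases, held 1631 counts and Snord80, at 858 bases, 1036. The sources used here do not give how reads that fall on both a host and a snoRNA gene were assigned, and whether these rows count snoRNAs or the host was not tested.

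In starvation, 8 of the 13 tested snoRNA rows were called higher and 0 lower, against 10.8% and 11.7% of all tested genes. Of the 8, 6 lay inside Gas5, 1 inside Snhg1 (Snord22) and 1 inside Snhg12 (Snord99). Whether the 6 inside Gas5 are separate from the host row was not tested. Gm25789 went from 82.5 ± 8.81 to 208 ± 64.5 CPM, Snord47 from 46.2 ± 6.70 to 128 ± 42.9 CPM and Snord80 from 21.7 ± 6.65 to 77.9 ± 18.3 CPM, or 2.53-, 2.78- and 3.59-fold, beside 2.65-fold for the Gas5 row. With the snoRNA rows added to their host, Gas5 went from 308 ± 40.4 to 832 ± 235 CPM (log2 difference 1.40 ± 0.12, adjusted p = 1.60e-14). The sum of the snoRNA rows was 1.44 times the Gas5 row in complete, 1.49 in starved, 1.73 in shLuc, 1.61 in shSlug1 and 1.48 in shSlug2 cells.

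**Figure D3:**
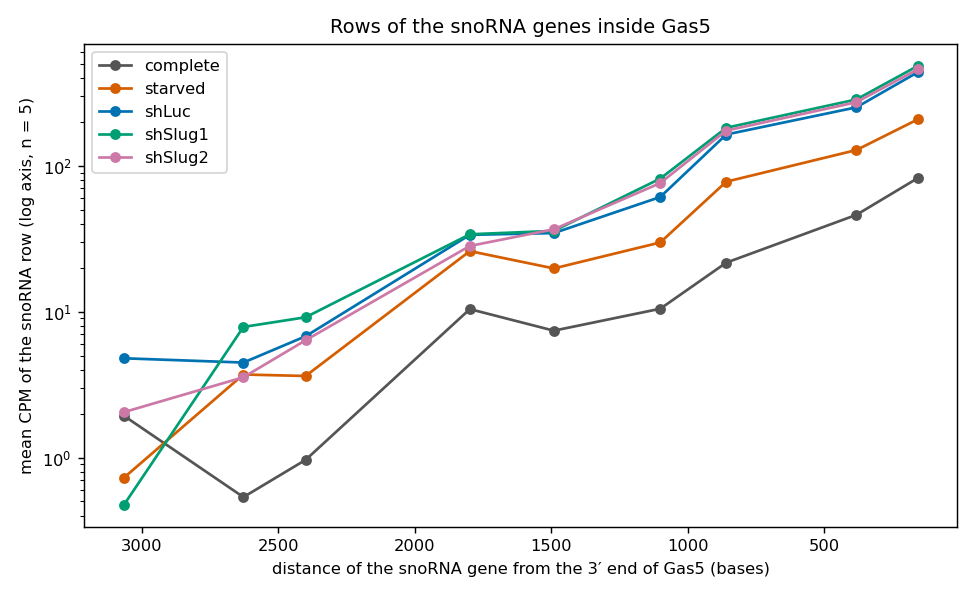
Mean CPM (vertical log axis, n = 5 libraries) of the rows of the snoRNA genes inside Gas5, against the distance in bases of each from the 3′ end of Gas5, with 1 line per group. The row nearest to the 3′ end is highest in every group, and in the 3 rows nearest to it complete is lowest, starved next and the 3 hairpin lines highest.

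The control hairpin line did not sit at the level of the starved parental cells in all of the 8 genes. The shLuc libraries are the reference on which the set was chosen, so the values are a description. In 3 of the 8 genes, Malat1, Neat1 and Snhg6, the libraries of both groups did not overlap, as was so for 14.6% of all tested genes. Malat1 read 2692, 3035, 2856, 3659 and 2632 CPM in shLuc, all above the starved parental range, a log2 difference of 0.68 ± 0.12. Neat1 read 55.6, 85.2, 89.9, 88.6 and 89.6 CPM, all below the starved parental range and within that of complete cells, a log2 difference of -1.36 ± 0.22. Gas5, Snhg6, Snhg8 and Snhg15 had higher means in shLuc (580.0 ± 80.9, 164 ± 26.9, 32.0 ± 11.8 and 224 ± 47.6 CPM) than in starved parental cells. Snhg1 and Snhg12 had lower ones (159 ± 13.7 and 36.0 ± 8.23 CPM). The log2 difference of Snhg15, 0.63 ± 0.21, fell as low as 0.21 over the other settings run. What separates shLuc from the parental line besides the hairpin cannot be told apart from the hairpin itself.

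Under the Slug hairpins the set parted by its means. Malat1, Neat1 and Snhg1 had lower means than in shLuc under both hairpins, and Gas5, Snhg6, Snhg8, Snhg12 and Snhg15 had higher ones. The libraries of Gas5, Snhg1, Snhg8 and Snhg12 overlapped with shLuc under both hairpins, and those of Neat1 under shSlug1. Since 3 of the 8 genes were selected on these values, they are given with no reading.

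Malat1 read 1864, 2124, 1557, 1831 and 2017 CPM in shSlug1 and 1185, 1238, 1853, 1284 and 1454 CPM in shSlug2. Every library of both groups lay below every shLuc library. The shLuc mean of 2975 ± 413 CPM was 1.58 times that of shSlug1, 1879 ± 215 CPM (log2 difference -0.66 ± 0.12), and 2.12 times that of shSlug2, 1403 ± 271 CPM (-1.09 ± 0.12). In the order of group means, shLuc stood alone at the top, and shSlug1, starved, complete and shSlug2 followed, each overlapping with its neighbour.

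Neat1 read 79.1, 64.0, 66.2, 38.6 and 70.9 CPM in shSlug1, overlapping with shLuc. In shSlug2 it read 38.5, 34.5, 40.8, 33.1 and 29.1 CPM, all below shLuc. The means were 63.7 ± 15.2 and 35.2 ± 4.61 CPM against 81.8 ± 14.7 CPM in shLuc, log2 differences of -0.37 ± 0.22 and -1.18 ± 0.22. Its order ran from starved, alone at the top, through complete, shLuc and shSlug1 to shSlug2, with each of these neighbours overlapping.

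The mitochondrial share of counts also fell between shLuc and shSlug2, and was highest within shSlug1 in replicates 4 and 5, at 24.3% and 26.5%. With CPM recomputed without mitochondrially encoded genes, the log2 differences between shSlug2 and shLuc were -1.16 for Malat1 and -1.25 for Neat1, and those between shSlug1 and shLuc -0.64 and -0.35.

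Snhg15 read 193, 225, 248, 288 and 166 CPM in shLuc. It read 324, 374, 399.8, 373 and 364 CPM in shSlug1 and 421, 507, 406, 518 and 469 CPM in shSlug2. The 3 groups did not overlap. The means of 367 ± 27.5 and 464 ± 49.8 CPM were 1.64 and 2.07 times the shLuc mean, log2 differences of 0.73 ± 0.21 and 1.07 ± 0.21. Snhg15 was thus lowest in complete medium and highest in shSlug2, with complete and starved overlapping through starved replicate 3, and starved and shLuc overlapping.

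Snhg6 read 182, 192, 174, 146 and 128 CPM in shLuc, 219, 237, 228, 253 and 198 CPM in shSlug1 and 262, 288, 260.4, 240.3 and 288 CPM in shSlug2. Both Slug hairpin groups lay above every shLuc library and overlapped with each other. The log2 differences were 0.48 ± 0.17 for shSlug1 and 0.71 ± 0.17 for shSlug2. Libraries did not overlap with shLuc in 3 of the 8 genes for shSlug1 (Malat1, Snhg6 and Snhg15) and in 4 for shSlug2 (these and Neat1), beside 3.13% and 2.07% of all tested genes. Malat1, Neat1 and Snhg15 were chosen on these values, so the counts are no result about the set.

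Gas5 read 597, 707, 571, 532 and 494 CPM in shLuc, 663, 756, 651, 768 and 638 CPM in shSlug1 and 744, 889, 638, 679.5 and 627 CPM in shSlug2, and the 3 groups overlapped. Its log2 differences from shLuc were 0.27 ± 0.13 and 0.30 ± 0.13. Snhg1 ran from 143 to 174 CPM in shLuc, from 119 to 153 CPM in shSlug1 and from 149 to 166 CPM in shSlug2, with differences of -0.21 ± 0.18 and -0.01 ± 0.18. Snhg12 ran from 27.5 to 48.2 CPM in shLuc, from 40.3 to 60.0 CPM in shSlug1 and from 28.9 to 51.8 CPM in shSlug2, and Snhg8 from 15.8 to 48.2 CPM, from 30.8 to 47.2 CPM and from 16.6 to 58.7 CPM. For Snhg12 and Snhg8 the groups overlapped, on as few as 9 and 4 counts in a library.

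By their means, Malat1, Neat1, Snhg6 and Snhg15 stood further from shLuc in shSlug2 than in shSlug1. The log2 differences between shSlug2 and shSlug1 were -0.43 ± 0.12, -0.81 ± 0.22, 0.24 ± 0.17 and 0.33 ± 0.21 in that order. Between the 2 hairpins Snhg15, chosen on values under the hairpins, was the only one of the 8 genes whose libraries did not overlap, beside 2.08% of all tested genes.

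**Figure D4:**
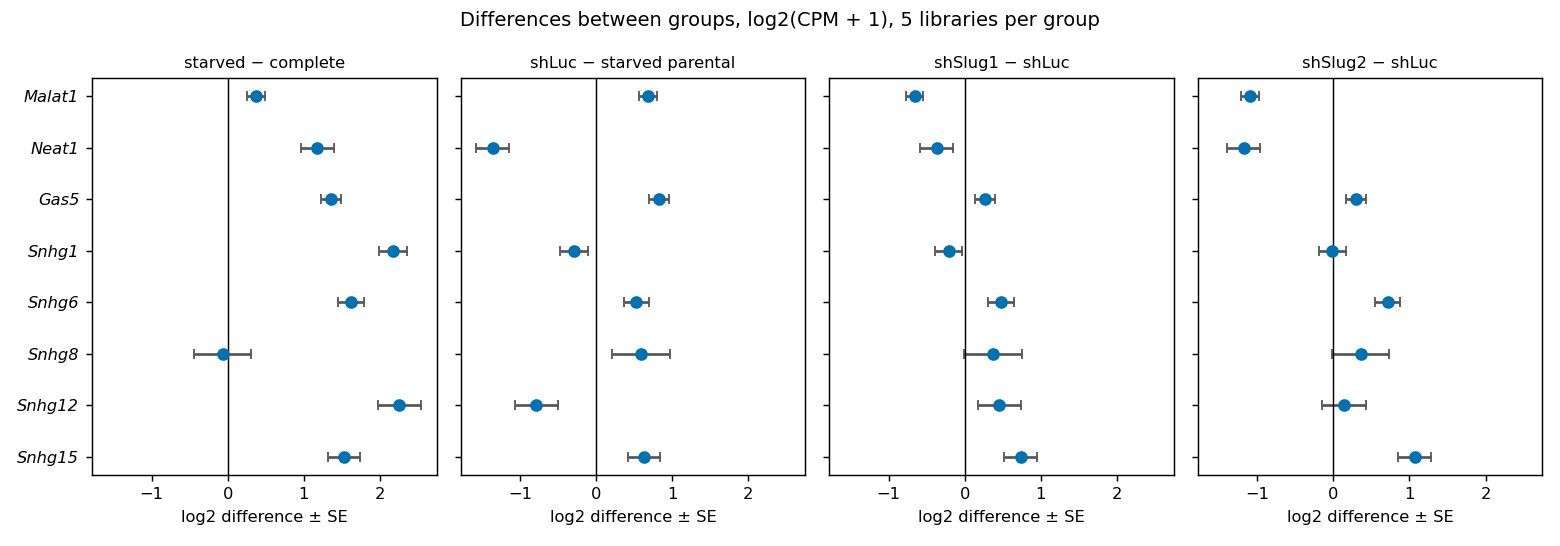
Log2 difference between groups (horizontal axes, ± SE of the limma fit, 5 libraries per group) for the 8 noncoding RNAs in 4 comparisons. Starvation points lie right of 0 except Snhg8, Neat1 lies at -1.36 in shLuc against starved parental cells, and under shSlug2 Malat1 and Neat1 lie left of -1 while Snhg15 lies at 1.07.

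Added together, the 6 hosts held 291 ± 17.1 CPM in complete, 891 ± 129 in starved, 1196 ± 118 in shLuc, 1516 ± 87.8 in shSlug1 and 1687 ± 146 CPM in shSlug2 libraries. All 8 genes made up 0.182% of counts in complete and 0.297% in starved cells, and 0.425%, 0.346% and 0.313% in shLuc, shSlug1 and shSlug2. Malat1, chosen on values under the hairpins, was the largest single part. Its means were 1437, 1865, 2975, 1879 and 1403 CPM in the same order of groups.

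Genes with the most similar pattern were sought by Pearson's r of log2(CPM + 1) over all 25 libraries, among 6279 genes with a mean of at least 20 CPM. The points share the 5 groups and the library depth, so r is a description. For Malat1 the nearest genes were Crebrf, a regulator of the stress factor CREB3 (r = 0.68), Gm26904 (0.60), Cnnm4 (0.60), Ajuba (0.59) and Rbfox2 (0.59). For Neat1 they were mt-Nd2, a mitochondrially encoded subunit of complex I (0.89), Xist (0.89), Fn1, the gene of fibronectin (0.85), Hnrnph1 (0.83) and Smg1, a kinase of nonsense-mediated decay (0.83). For Snhg15 they were Angptl8, a secreted regulator of lipoprotein lipase (0.96), Gdf15, a secreted stress hormone (0.94), Gm14005 (0.94), Ier2, an immediate early gene (0.93), and Txndc9 (0.93). Gdf15 stood at 4.09 ± 2.22 CPM in complete, 47.2 ± 24.0 in starved, 75.8 ± 15.9 in shLuc, 85.7 ± 16.3 in shSlug1 and 105 ± 20.1 CPM in shSlug2, the order of Snhg15. Xist stood at 226 ± 41.0, 525 ± 60.2, 172 ± 43.6, 122 ± 29.5 and 98.9 ± 24.2 CPM in the same groups, the order of Neat1.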

How the data were processed

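Per the labels' protocols, the RNA of 25 samples, extracted with a PureLink kit, went into QIAseq UPX 3′ libraries. The authors deposited 1 table of CPM for 30926 genes; each column sums to 1e+06, and 2766 genes have no count in any library. The build was mm10, per the submitters' processing notes. Aligner, gene annotation, use of strand and of molecular identifiers, and the rule for reads on several genes are not given here; this bears on Gas5 and its snoRNA genes and on genes that overlap others on the opposite strand (Gas5 with Zbtb37, Snhg6 with Mcmdc2, Malat1 with Gm37376). Whole reads were recovered from the value of 1 read in each library, for 100% of values within a tolerance of 0.001.

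Differences were fitted with limma's trended test on log2(CPM + 1) in R 4.3.3 (limma 3.58.1), with the 5 groups in 1 fit of 25 libraries and 20 residual df. It covered 12473 genes that reached 5 CPM in 5 or more libraries, two-sided, with Benjamini-Hochberg adjustment over all of them and calls at an adjusted p under 0.05. The 95% interval uses the same df. Such differences understate the change of low genes. On the recovered reads, edgeR's quasi-likelihood test (edgeR 4.0.16) called 3071 genes in starvation and DESeq2 1.42.0 called 2448, against 2799 with limma. The scripts were tested on simulated data with known changes. The p-values measure the spread between these samples, which may be technical. Other settings were other pseudocounts, filters and scalings, the replicate number as a block, a fit restricted to the groups in question and leaving out libraries; adding snoRNA rows to their hosts was chosen after seeing the data.

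The members and the gene lists were chosen with earlier results of these data known. Named besides the members are Snai2, the 4 list members with the smallest p in starvation at most, neighbours within 10000 bases, snoRNA rows inside the hosts, and the 5 genes most like Malat1, Neat1 and Snhg15; Tsix, Snhg9, Snhg14, Snhg18 and Epb41l4aos complete a count and were named after their values were seen. Coordinates are from GENCODE M21, counted from 1, where 30857 gene IDs were found without their version; start sequences are from RefSeq on GRCm38.p6.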

Additional observations from a re-analysis of the deposited data

Results flagged for a closer look

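Of the 40 sets of 5 libraries (8 genes in 5 groups), 3 held 1 library that stood apart from the others, with a gap to its nearest neighbour of more than 0.710 of the whole range. Chance gives this in about 1 set in 20. Neat1 in shLuc replicate 1 was 55.6 CPM, below the other 4 shLuc libraries. Gas5 in starved replicate 4, the deepest library, was 498 CPM, above the other 4 starved libraries. Snhg6 in complete replicate 3 was 55.7 CPM, above the other 4 complete libraries.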

How the results depend on the processing

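Over the alternatives run for starvation, Neat1, Gas5, Snhg1, Snhg6, Snhg12 and Snhg15 kept their direction and their call, with log2 differences of 0.94 to 1.30, 1.21 to 1.44, 1.92 to 2.34, 1.52 to 1.78, 1.96 to 2.38 and 1.35 to 1.95. Malat1 stayed positive, from 0.29 to 0.48, and lost its call in the 3 settings named above. Snhg8, never called, turned to 0.041 with quantile scaling, 0.26 with edgeR and 0.21 with DESeq2, and ran from -0.31 to 0.37 with 1 library left out; the cause was not tested. Of the 8 genes 6 to 7 were called in each setting, and of the noncoding hosts 8 to 9. In the hairpin comparisons all of the 8 genes except Snhg1 kept their direction against shLuc under all alternatives. Snhg1 ran from -0.091 to 0.021 for shSlug2. Malat1, Neat1 and Snhg15 were chosen on these values, so the kept direction is a description and no support. Malat1 in shLuc against starved parental cells went from 0.68 to 0.41 with quantile scaling. The median of all genes between these groups was 0.10 as deposited, 0.18 after TMM and 0.02 after quantile scaling. Libraries of the same number did not deviate together (correlations of -0.05 to 0.03), and with the number as a replicate block 2774 genes and 7 of the 8 members were called. Depth limits Snhg8 and Snhg12, whose lowest libraries held 1 and 3 counts.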
